A study of Caenorhabditis elegans with 3 samples.

Results

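The genes described are 10 genes of dosage compensation and condensin in the nematode Caenorhabditis elegans: sdc-1, sdc-2, sdc-3, dpy-21, dpy-26, dpy-27, dpy-28, dpy-30, mix-1 and smc-4. They were chosen by name, and a gene counted as measured when a probe of the array was annotated to it and to no other gene. That held for 9 of the 10, through 10 probes, out of 15168 genes with such a probe and 20000 probes in all. No probe named here belongs to dpy-21, which encodes a histone demethylase acting on the X chromosome, so its RNA was not analysed here. RNA of adults, labelled TP11 adult w/ emb 2, was compared with a reference RNA labelled as wild type and mixed. The adults were read as hermaphrodites carrying embryos, a sex that this label does not state. The code and the number 2 were left unread. The labels give no genotype, allele or treatment for the adults, no age beyond adult, and no composition for the mixture. Each of 3 worm preps was hybridised on its own 2-colour array, and these 3 arrays form 1 group. Separate cultures are not stated, and p-values therefore cover only the variation among these 3 samples, part of which may be technical. Whole worms were used as far as the labels say, so more cells of a type and more RNA per cell cannot be told apart.

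In C. elegans, hermaphrodites carry a pair of X chromosomes and males a single one. The dosage compensation complex binds both X chromosomes of the hermaphrodite in somatic cells and lowers their transcription to match the male's. Its core is a condensin, a ring-shaped machine that folds chromosomes, built from the SMC proteins DPY-27 and MIX-1, the kleisin DPY-26 and the HEAT-repeat proteins DPY-28 and CAPG-1. Condensin I, which compacts chromosomes in mitosis and meiosis, has the same parts except that SMC-4 takes the place of DPY-27. MIX-1 and SMC-4 also serve in condensin II. SDC-1, SDC-2, SDC-3 and DPY-30 bring the condensin to X, and the SDC proteins also repress the male-determining gene her-1. DPY-30 is, besides, a subunit of the COMPASS complexes that methylate lysine 4 of histone H3.

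Values are log2 ratios of adults over reference, with each array centred on its median, so that 1 is a doubling and 0 is the median probe. That positive means more RNA in the adults was read from the channel order alone, since the dyes are not named: the direction is likely, not settled, and every "higher" and "lower" rests on it. A gene was called when its mean ratio differed from 0 in limma with a Benjamini-Hochberg adjusted p under 0.05 over all 19710 probes measured on the 3 arrays. The arrays differed in spread: the middle 50% of the log2 ratios spanned 1.04, 0.657 and 0.499 units on preps 1, 2 and 3. Extreme values on prep 1 therefore weigh most in a mean. Dim spots were not set aside, because no brightness values were used here, and the number of arrays limits the precision.

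Of the 9 measured genes, 6 were higher in the adults than in the reference, 0 were lower and 3 did not pass. That is 66.7% of the measured members higher, against 15.8% of all 19710 probes, while 16.2% of all probes were lower and 32.0% were called in either direction. Over all 15090 genes tested, 2421 were called higher and 2699 lower. The median log2 ratio was 0.72 over the 9 members and −0.03 over all genes. The genes called were smc-4, dpy-28, mix-1, dpy-30, dpy-26 and sdc-3, and those that did not pass were dpy-27, sdc-1 and sdc-2. The ratios of 7 of the 9 were above 0 on every array. With prep 1, 2 or 3 left out in turn, 5, 4 and 6 of them were called higher and 0 lower. Of all 19710 probes, 2552, 2720 and 2495 were called higher in these fits, against 3116 with all preps. Those called lower numbered 2803, 2418 and 2899, against 3186.

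**Figure D1:**
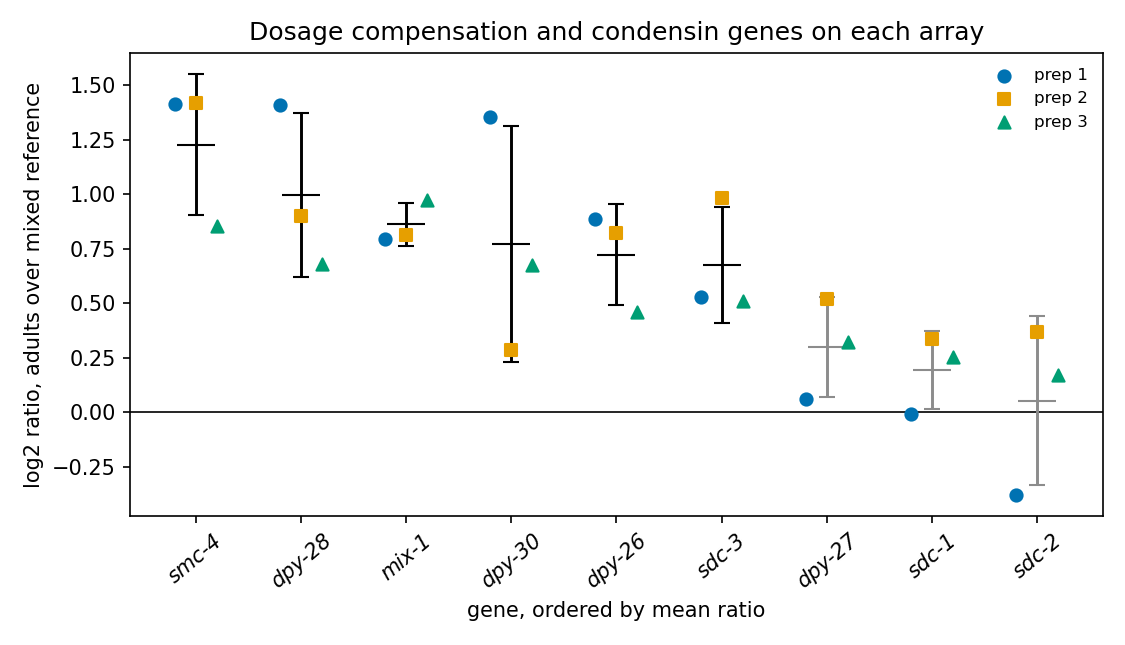
Log2 ratio of adults over mixed reference (vertical axis) for the 9 measured genes, ordered by mean. Symbols are the 3 preps, horizontal ticks the means and bars the SD over the preps, in black for genes called higher and grey for the others. Means run from 1.23 for smc-4 to 0.05 for sdc-2, and sdc-1 and sdc-2 fall below 0 on prep 1.

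The SMC subunits differed most among themselves. The gene smc-4, for the SMC subunit of condensins I and II, had log2 ratios of 1.41, 1.42 and 0.85 on preps 1, 2 and 3. All of these arrays were well above 0, and the mean of 1.23 ± 0.32 (SD, n = 3) corresponded to a 2.34-fold higher level in the adults. In limma its adjusted p was 0.00066 and its 95% interval ran from 0.82 to 1.64. It had the highest ratio of the members. Were the direction turned, every ratio would invert, and smc-4 would be the lowest of them at 0.427-fold. Its paralog dpy-27, the SMC subunit found only in the dosage compensation complex, had log2 ratios of 0.06, 0.52 and 0.32. Every array was above 0, yet the mean of 0.30 ± 0.23 (SD, n = 3) did not differ from 0 in limma (adjusted p = 0.24), with a 95% interval from −0.09 to 0.69. The arrays of the 2 genes did not overlap, since the highest value of dpy-27 lay below the lowest of smc-4.

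Taken array by array, the log2 ratio of dpy-27 minus that of smc-4 was −1.35, −0.90 and −0.53 on preps 1, 2 and 3, a mean difference of −0.93 ± 0.41 (SD, n = 3). It was negative on each array. A two-sided exact sign-flip permutation test gave p = 0.25, the smallest value that this test can give with 3 arrays, so it could not pass a threshold of 0.05. Each value is a ratio to the same gene's level in the reference, and none says which of the 2 RNAs was more abundant.

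MIX-1 pairs with DPY-27 in the dosage compensation complex and with SMC-4 in the other condensins. Its gene was read by 2 probes. The probes gave log2 ratios of 0.83, 0.88 and 1.04, and of 0.76, 0.75 and 0.90, on preps 1, 2 and 3. They tracked each other closely, and mix-1 had the smallest spread between preps of the 9 genes. The mean of both probes was 0.86 ± 0.10 (SD, n = 3), 1.82-fold higher in the adults, and the larger of their adjusted p-values in limma was 0.0042.

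The non-SMC subunits of the condensin were higher as well. For dpy-28, whose HEAT-repeat product also limits meiotic crossovers, the log2 ratios were 1.41, 0.90 and 0.68. Prep 1 was highest, and the mean of 1.0 ± 0.37 (SD, n = 3) was 1.99-fold higher (limma, adjusted p = 0.0026). For dpy-26, the kleisin that closes the ring, the log2 ratios were 0.89, 0.82 and 0.46, lowest on prep 3. Their mean was 0.72 ± 0.23 (SD, n = 3), or 1.65-fold higher (limma, adjusted p = 0.0098). Without prep 2 the call of dpy-26 was lost, with a mean of 0.67 and an adjusted p of 0.055.

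The recruitment genes split. The zinc-finger gene sdc-3 had log2 ratios of 0.53, 0.98 and 0.51, highest on prep 2. Its mean of 0.67 ± 0.27 (SD, n = 3) was 1.6-fold higher (limma, adjusted p = 0.015). Without prep 2 that p became 0.15 at a mean of 0.52. The gene sdc-1, also for a zinc-finger protein, had log2 ratios of −0.01, 0.33 and 0.25. Prep 1 sat at 0 and the other preps slightly above it, and the mean of 0.19 ± 0.18 (SD, n = 3) did not pass in limma (adjusted p = 0.45).

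SDC-2 is the protein made in hermaphrodites and not in males that triggers assembly of the complex on X. Its gene had log2 ratios of −0.38, 0.37 and 0.17 on preps 1, 2 and 3. The arrays lay on both sides of 0, and the mean was 0.05 ± 0.39 (SD, n = 3). In limma the adjusted p was 0.87 and the 95% interval ran from −0.37 to 0.48. The sign of the mean turned to negative without prep 2 (−0.11) and without prep 3 (−0.01). Any mean ratio within that interval remained compatible with these 3 arrays, so a modest change in either direction stays possible.

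For dpy-30 the log2 ratios were 1.36, 0.28 and 0.68, the widest spread of the 9 genes. Prep 1 stood far above prep 2, though all arrays were above 0. The mean was 0.77 ± 0.54 (SD, n = 3), 1.71-fold higher (limma, adjusted p = 0.018). Without prep 1 the mean was 0.48 and the adjusted p in limma 0.071, and the gene was no longer called.

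Neighbours in the order of means mostly could not be separated. Of the 8 neighbouring pairs, 3 kept their order on all 3 arrays: smc-4 over dpy-28, sdc-3 over dpy-27, and dpy-27 over sdc-1. On prep 1 smc-4 lay only 0.003 above dpy-28, nearly a tie, and the order itself was set by these same arrays. The step from sdc-3 to dpy-27, which also separates the genes called from those not called, was 0.37 ± 0.16 (SD, n = 3) on the log2 scale. The other steps of that kind were 0.23 ± 0.26 and 0.11 ± 0.07. Over all 36 pairs of members, 23 kept their order on every array, and no pair could reach an exact sign-flip p under 0.25. The genes dpy-27 and sdc-1 lay below smc-4, dpy-28, mix-1, dpy-26 and sdc-3 on every array, and so did sdc-2.

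Grouped by role, the 4 condensin subunit genes that also serve outside dosage compensation (mix-1, dpy-26, dpy-28 and smc-4) averaged log2 ratios of 1.13, 0.99 and 0.74 on preps 1, 2 and 3. The 4 genes known for dosage compensation and sex determination (dpy-27, sdc-1, sdc-2 and sdc-3) averaged 0.05, 0.55 and 0.31. The first set was higher on each array, by 1.08, 0.44 and 0.43, a mean difference of 0.65 ± 0.37 (SD, n = 3). All 4 genes of the first set were called higher, against 1 of 4 in the second and 2421 of all 15090 genes tested. The gene dpy-30, also called higher, was placed in neither set. At their edges the sets were not apart: dpy-26 minus sdc-3 was 0.05 ± 0.28 (SD, n = 3), positive on 1 array. This grouping was made with the values known and is a description with no test.

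Ranks within each array take out the difference in spread. Among all measured genes of an array, smc-4 stood at the 94.2nd percentile on prep 1, the 98.9th on prep 2 and the 93.6th on prep 3. The percentiles of mix-1 were 83.6, 93.5 and 95.5, so its nearly constant log2 ratio was a lower rank on the widest array. On prep 1, dpy-27 (53.9) and sdc-1 (50.5) were close to the middle of all genes and sdc-2 (32.0) was below it. On prep 2 the same genes stood at 86.7, 78.8 and 80.6, and on prep 3 at 77.9, 74.2 and 68.3. These 3 genes were thus above the median gene on preps 2 and 3, while prep 1 placed them from just above it to below it. The gene dpy-30 went the other way, with 93.6 on prep 1 and 76.0 on prep 2.

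**Figure D2:**
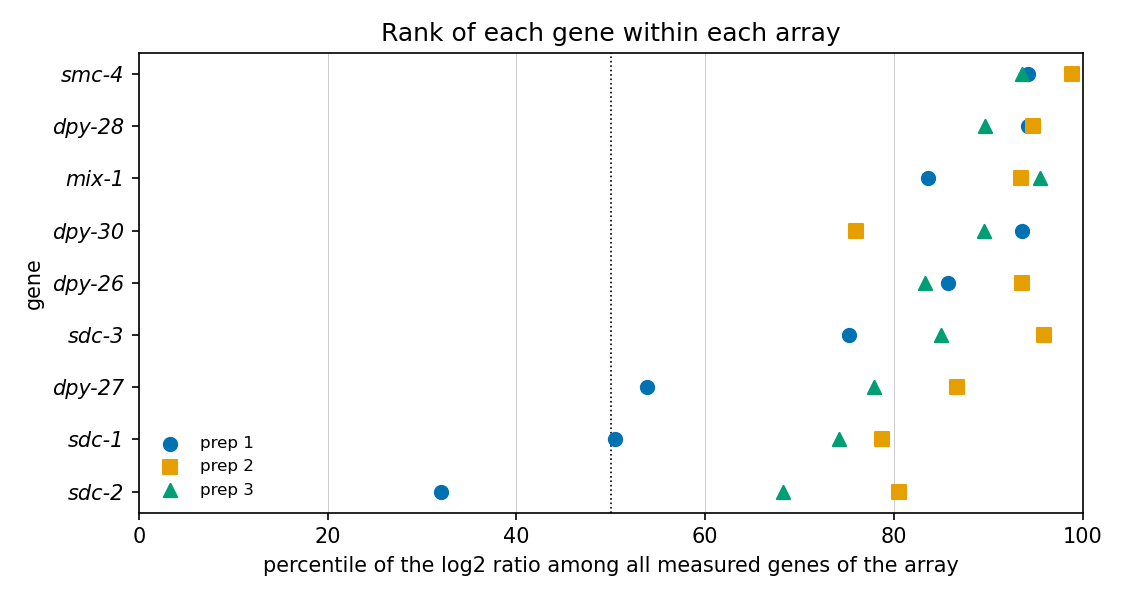
Percentile of each gene's log2 ratio among all measured genes of the same array (horizontal axis), for preps 1, 2 and 3, with the genes in order of mean ratio from the top. The dotted line is the 50th percentile, and sdc-2 on prep 1, at 32.0, is the only point to its left.

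The genes of the remaining condensin subunits were higher too. All 3 measured genes of that list were higher (0 lower), with a median log2 ratio of 1.01. The gene capg-1, whose product sits in condensin I and in the dosage compensation complex alike, had log2 ratios of 0.85, 1.27 and 1.26 and a mean of 1.12 ± 0.24 (SD, n = 3; limma, adjusted p = 0.00085). The lowest was capg-2 of condensin II, at 0.74 ± 0.10 (adjusted p = 0.0069 in limma). The subunit gene hcp-6 is without a value here.

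Other SMC complexes showed similar counts. Cohesin holds sister chromatids together, and of its 9 measured subunit, loader and regulator genes (of 13 listed) 8 were higher and 0 lower, with a median of 1.13. The kleisin gene scc-1 led with 2.35, 1.5 and 1.34 on preps 1, 2 and 3 and a mean of 1.73 ± 0.54 (SD, n = 3; adjusted p = 0.00019 in limma). The lowest, the X-linked kleisin gene coh-1, stood at 0.40 ± 0.16 and did not pass (adjusted p = 0.11). All 4 genes of the SMC5/6 complex, which acts in DNA repair, were higher, from smc-6 at 1.20 ± 0.13 to nse-4 at 0.83 ± 0.32 (adjusted p = 0.00045 and 0.0061 in limma). Cohesin counts were 8, 7 and 7 without preps 1, 2 and 3.

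The COMPASS list holds genes whose products work with DPY-30 in H3K4 methylation, and with it the H3K27 demethylase gene utx-1. Of 9 genes, all measured, 9 were higher and 0 lower, with a median log2 ratio of 0.81, against a mean of 0.77 for dpy-30. On preps 1, 2 and 3 the list means were 1.18, 0.79 and 0.69, and dpy-30 stood at 1.36, 0.28 and 0.68. On prep 2 dpy-30 thus lay well below the list mean. The methyltransferase gene set-2 was highest, at 1.46 ± 0.11 (SD, n = 3; adjusted p = 0.00013 in limma). The lowest was utx-1 at 0.55 ± 0.24, with an adjusted p of 0.038 in limma that rose to 0.067, 0.23 and 0.06 with preps 1, 2 and 3 left out. Without prep 1, 6 of the 9 were higher, and without preps 2 and 3, 7 and 8.

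Upstream of the complex, of 11 measured genes of sex determination and X-chromosome counting (of 14 listed) 5 were higher and 0 lower. The remaining 6 did not pass, and the median log2 ratio was 0.43. The phosphatase gene fem-2, which promotes male fates, was highest at 1.75, 0.49 and 0.76 on preps 1, 2 and 3, a mean of 1.0 ± 0.66 (SD, n = 3; adjusted p = 0.0077 in limma). The lowest was the calpain protease gene tra-3 at 0.02 ± 0.25 (adjusted p = 0.96 in limma). Leaving out any of the preps left 3 of the 11 higher. Of the X-linked genes, sex-1 lost its call without prep 3, and ceh-39 without prep 1 or prep 2. The gene sea-1, on chromosome II, lost its call whichever prep was left out. Outside the naming rule, and chosen with the values known, her-1, the target of the SDC proteins, stood at 0.04 ± 0.20 (adjusted p = 0.88) and the male switch gene xol-1 at 0.18 ± 0.16 (adjusted p = 0.48). Neither passed in limma.

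In the last list, of H4K20 methylation and other chromosome proteins, 4 of 6 genes were measured, 2 were higher and 0 lower, with a median of 0.51. The H4K20 methyltransferase gene set-4, whose product acts on the mark that DPY-21 trims, was highest at 1.30, 0.06 and 0.66 on preps 1, 2 and 3. Its mean of 0.67 ± 0.62 (SD, n = 3; adjusted p = 0.042 in limma) was no longer called once prep 1 (0.36, adjusted p = 0.2) or prep 3 (0.68, adjusted p = 0.061) was removed. The Aurora B kinase gene air-2 was lowest, at −0.52, 0.68 and 0.40, a mean of 0.19 ± 0.63 that did not pass (adjusted p = 0.59), though without prep 1 it was 0.54 and passed (adjusted p = 0.041). Over the 6 lists, 31 of 40 measured genes were higher (77.5%) and 0 lower, with a median log2 ratio of 0.73. With prep 1, 2 or 3 left out, 26 of the 40 were higher each time, and without prep 1 these include air-2, which was not among the 31. The members' share of 66.7% and median of 0.72 lay near these values, while 2421 of all 15090 genes tested were higher. Members and lists were both chosen with earlier results of these data known, so this nearness is a description. Whether the members stand apart from related chromosome genes was not tested.

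**Figure D3:**
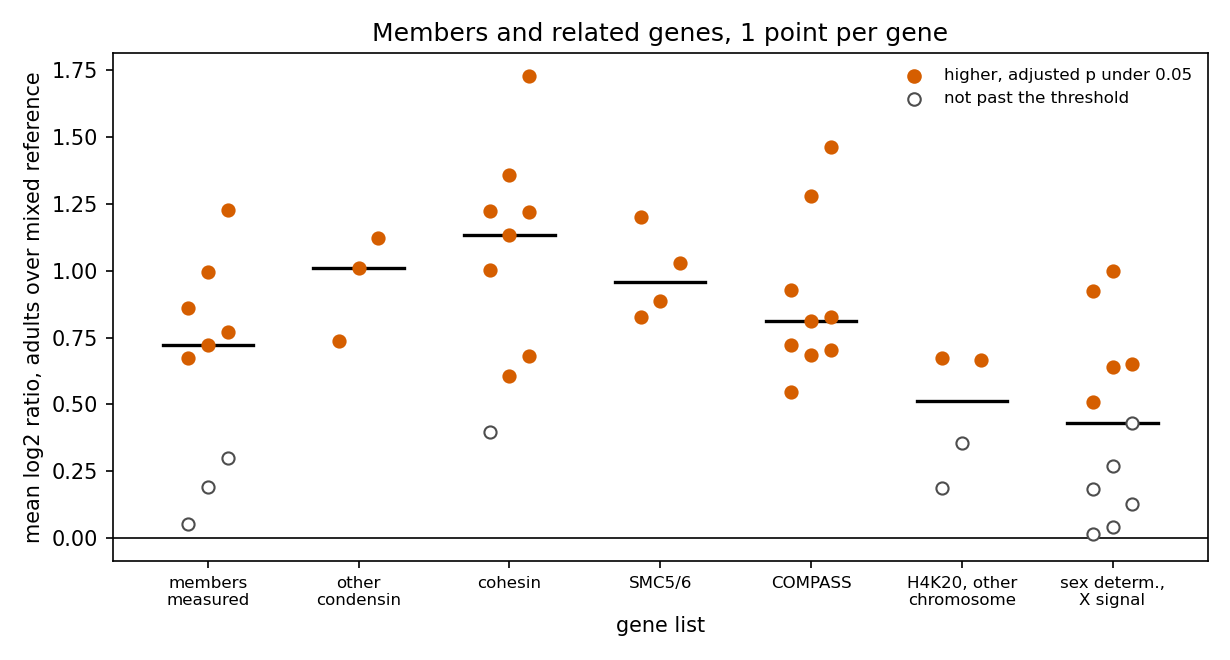
Mean log2 ratio of adults over mixed reference for the 9 measured members (left) and the 6 lists of related genes, with 1 point per gene. Filled points are genes called higher and bars are medians, which run from 0.43 for sex determination to 1.13 for cohesin. No gene of these lists was called lower.

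Germ cell genes moved in the same direction. The marker lists here were drawn up after the values were seen, so their counts are a description and no independent check. Over all 15090 genes tested, 2421 were higher and 2699 lower. In a list of 16 germ cell and oocyte marker genes, all 16 were higher, with list means of 2.16, 1.33 and 1.5 on the 3 preps in order. Without prep 2 or prep 3, 15 were higher, as him-3 lost its call (adjusted p = 0.074 and 0.24 in limma). Values ran from 0.54 ± 0.16 for the chromosome axis gene him-3 to 2.45 ± 0.74 for the yolk receptor gene rme-2 (SD, n = 3 each). Of 9 body wall muscle markers 1 was higher and 0 lower (list means of 0.01, 0.21 and 0.07), and 0 were called without prep 1, without prep 2, after scaling of the arrays (adjusted p of unc-52 = 0.053 in limma) and with probes on at least 2 arrays (0.051). Of 9 neuronal markers 6 were lower and 0 higher (list means of −1.17, −1.11 and −0.90). Of 3 measured yolk genes, which mark the adult hermaphrodite, 1 was higher, vit-2 at 1.0 ± 0.35, and 0 lower. The others did not pass in limma: vit-6 at 0.22 ± 0.15 (adjusted p = 0.38) and vit-5 at −0.15 ± 0.27 (adjusted p = 0.58). The yolk list means were 0.44, 0.22 and 0.40 on preps 1, 2 and 3. The part of germ cell content in the members' ratios was not tested. The mean over the 9 members was 0.67, 0.71 and 0.54 on preps 1, 2 and 3.

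The chromosome on which dosage compensation acts was described next, with each gene's chromosome taken from the RefSeq gene table of the assembly WBcel235. Of 2259 measured X-linked genes, 128 (5.67%) were higher and 481 (21.3%) lower, against 2284 (17.9%) and 2211 (17.3%) of 12764 autosomal genes. The median log2 ratio was −0.23, −0.13 and −0.08 on preps 1, 2 and 3 for X-linked genes, and 0.02, −0.01 and 0.00 for autosomal genes. The X-linked median was below that of the pooled autosomes on every array. Chromosome V was low as well, with medians of −0.16, −0.07 and −0.09, the last of them below that of X on prep 3. Among the autosomes, chromosome III had 27.2% of its genes higher and 12.9% lower, and chromosome V 9.62% higher and 19.7% lower. With the direction turned, these shares would change places. These are counts over genes, which are not replicates, and how much dosage compensation or any other feature of X contributes to them was not tested.

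**Figure D4:**
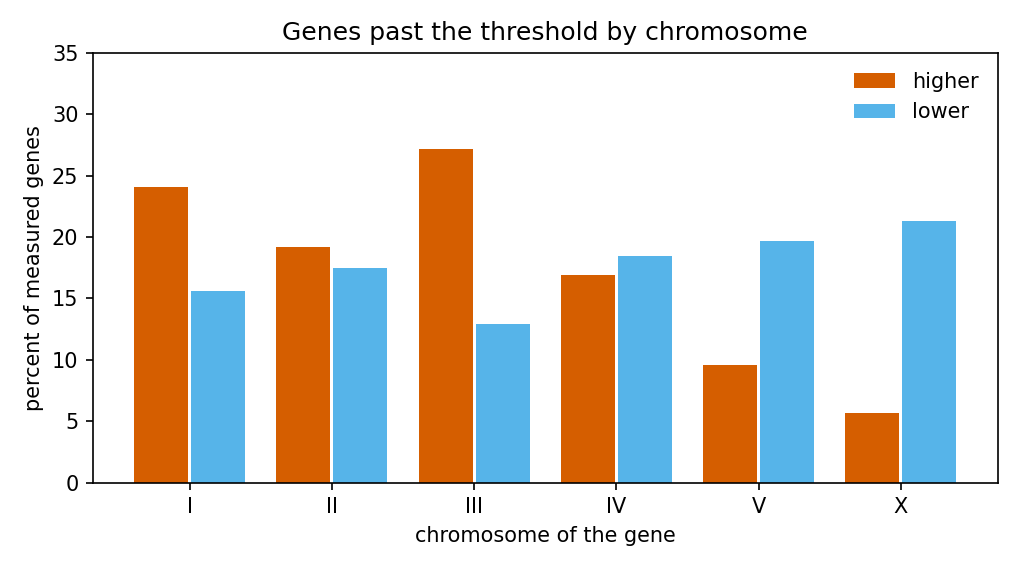
Percent of the measured genes of each chromosome (horizontal axis) called higher or lower in adults than in the mixed reference. Bars of higher genes range from 27.2% on chromosome III to 5.67% on X, where the bar of lower genes, at 21.3%, is the tallest of its kind.

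The members lie on chromosomes II (mix-1), III (dpy-27, dpy-28 and smc-4), IV (dpy-26), V (sdc-3, dpy-30 and dpy-21) and X (sdc-1 and sdc-2). Of the 7 measured autosomal members 6 were called higher, and neither of the 2 X-linked ones was. Over all measured genes, 17.9% of autosomal and 5.67% of X-linked genes were called higher. The 2 X-linked members are too few for their lack of a call to be set against either share. The X-linked members were still above the median of their own chromosome: among the 2259 X-linked genes, the mean log2 ratio of sdc-1 lay at the 83.0th percentile and that of sdc-2 at the 71.2nd. By array, sdc-2 was at 42.9 on prep 1, 92.6 on prep 2 and 82.9 on prep 3 among X-linked genes, and sdc-1 at 62.2, 91.0 and 88.6. In the related lists, 3 of 6 X-linked genes (sex-1, ceh-39 and utx-1) and 28 of 34 autosomal ones were higher. With 2 X-linked members, whether their place in the order goes with their chromosome was not tested.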

How the data were processed

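The authors deposited a table of log2 ratios, 1 column per array, for 20000 probes. Not given in the sources used here were normalization, filters, dyes and log base. The log base was inferred: 100% of ratios under 3 are multiples of 0.001 when read as log2 (tolerance 0.00005), against 10.7% as natural log and 8.89% as log10. The deposited medians were 0.02, 0.07 and −0.01 on preps 1, 2 and 3, and how the arrays were centred stays unknown. Of the probes, 15655 had 1 gene in the platform annotation, 198 several and 4147 none here. Symbols were updated through RefSeq gene IDs (15569 probes) or accessions (7), and 79 kept the platform's.

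Arrays were centred on the median of the 19710 probes with 3 values. An intercept was fitted with limma 3.58.1 (R 4.3.3, lmFit and eBayes, 2 residual and 8.96 prior degrees of freedom), two-sided against 0, with Benjamini-Hochberg adjustment over all probes. The median standard error was 0.18. The script was also run on simulated data with independent normal noise and few changed probes. That setting differs from these arrays, so the run checks the code and not the calls. A gene with several probes has their mean and the largest adjusted p, and was called when at least 1 probe passed.

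The members and lists were chosen with earlier results of these data known, and the marker lists after the values were seen. By rule, all members were named, and in each related list the highest and lowest gene, plus capg-1. Outside that rule, sex-1, ceh-39, sea-1, her-1 and xol-1 were named with the values known. The array labels may end in a date, but with 1 array per prep no batch could be fitted. The alternatives were no centring, scaling, quantile normalization, probes on at least 2 arrays, 1 row per gene, a trend and robust variance, and leaving out each prep.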

Additional observations from a re-analysis of the deposited data

How the results depend on the processing

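The calls of smc-4, dpy-28 and mix-1 held under all 9 alternatives, with log2 ratios of 1.13 to 1.42, 0.79 to 1.15 and 0.80 to 0.92. The genes dpy-27, sdc-1 and sdc-2 passed under none of them (lowest adjusted p in limma 0.089, 0.22 and 0.28). The calls of dpy-26, dpy-30 and sdc-3 held under 8 of 9 and were lost when 1 prep was left out. Over the leave-outs the mean of dpy-30 ran from 0.48 (without prep 1) to 1.01, that of dpy-26 from 0.64 to 0.85 (0.67 without prep 2, where its call ended) and that of sdc-3 from 0.52 (without prep 2) to 0.76. The mean of sdc-2 ran from −0.11 without prep 2, over −0.01 without prep 3, to 0.27 without prep 1. Leaving out a prep leaves 2 arrays and 1 residual degree of freedom, and beyond that the cause was not tested. Centring, scaling, quantile normalization, the filter, averaging probes and the variance model changed no member's call or sign. The difference of dpy-27 minus smc-4 stayed negative under all 9 (−0.93 as reported, −1.12 to −0.71 over the leave-outs). No paired analysis was possible because there is 1 group. Spot intensities, which would show signal over background, were not used here.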
